A study of Drosophila melanogaster with 2 samples.

Results

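A total of 170 of 3417 peaks of the CG10959-eGFP protein (4.98%, 95% Wilson interval 4.30 to 5.76) had their summit, the base of highest signal, inside the protein-coding sequence of a gene. CG10959 is a gene on the X chromosome of Drosophila melanogaster whose product RefSeq names only as an uncharacterized protein. Chromatin immunoprecipitation with sequencing (ChIP-seq) was done with an anti-GFP antibody on whole embryos aged 0 to 8 h of the strain CG10959-GFP, transgenic flies that carry the tagged protein as an eGFP fusion. Both libraries, biological replicates 1 and 2, belong to this 1 group, no untagged or other control library was analysed here, and the promoter that drives the fusion is not stated in the labels. The peaks come from the authors' list for the pooled replicates past their irreproducible discovery rate (IDR) threshold, called the main list here, and a peak was kept at any distance from a transcription start site (TSS) when its summit lay in an annotated coding sequence (Ensembl annotation, dm6 assembly) on X, 2L, 2R, 3L, 3R or 4. The authors' longer ranked list of the pooled replicates, with 144499 peaks of every strength on the same arms, was used for comparison.

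Coding exons carry the codons of a protein, and in Drosophila they are richer in G and C than introns and intergenic DNA. Proteins that regulate transcription are best known for binding promoters and enhancers, which mostly lie outside coding sequence, although enhancers inside coding exons are known. In ChIP-seq a summit marks where crosslinked fragments piled up highest. It shows neither direct contact nor an effect on the gene that holds it, and in whole embryos signal from few cells and weak signal from many cells cannot be told apart.

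The base sequences at the summits differed from those of the other peaks, and 5 coding-exon summits and 1 intronic summit are shown as examples, not as typical windows. Each is the part, within 50 bases of the summit, that the annotation does not call untranslated, on the plus strand of dm6, read from RefSeq's copy of that assembly. The strongest peak, in otp, is described below without its sequence. The next 3 by strength lay in Pde1c, Ubr1 and CG10357. Capitals mark TGGCGC or its complement GCGCCA, together with GGNGGCGC (N is any base), the core of the motif of the insulator protein CTCF, where that motif is present. Where N is T, GGNGGCGC contains TGGCGC, and in Ubr1 the 2 motifs overlap with N as G. The windows in klar and CG7465 come from weaker peaks, and only the first holds either motif. The window in l(3)mbn (signal 173.9), a stronger peak than both, holds neither and is not shown. TGGCGC was picked after the strongest sequences were seen, and 22 of all 170 coding-exon windows (12.9%) held it.
Pde1c, chr2L:11816561-11816631, signal 443.9: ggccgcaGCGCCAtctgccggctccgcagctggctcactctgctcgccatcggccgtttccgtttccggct
Ubr1, chrX:16967572-16967672, signal 276.6: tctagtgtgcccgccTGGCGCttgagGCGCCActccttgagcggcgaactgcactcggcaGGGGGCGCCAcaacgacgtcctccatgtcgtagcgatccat
CG10357, chr3L:3616489-3616546, signal 268.2: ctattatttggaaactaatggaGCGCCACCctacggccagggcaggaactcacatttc
klar, chr3L:506207-506307, signal 149.0: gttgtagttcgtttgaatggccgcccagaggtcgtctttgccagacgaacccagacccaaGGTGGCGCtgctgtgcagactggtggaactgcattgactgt
CG7465, chr3L:4480909-4481009, signal 161.1: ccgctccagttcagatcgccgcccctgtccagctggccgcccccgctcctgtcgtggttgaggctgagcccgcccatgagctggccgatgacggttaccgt
Intron of CG11050, chr2L:6612663-6612763, signal 1500.5: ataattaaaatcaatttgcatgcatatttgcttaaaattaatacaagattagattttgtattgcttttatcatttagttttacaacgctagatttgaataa
The intronic window, shown in lower case throughout, belongs to the strongest intronic peak of the main list and has a GC content of 20.8%. The whole window in Ubr1 has 65.3% and that in CG7465 has 69.3%. These windows lie further apart than the groups do. The median was 33.7% over intronic main-list summits (lower quartile 28.5) and 58.4% over coding-exon summits.

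Coding exons held a smaller part of the main list than of the genome or of the ranked list. Coding bases made up 17.1% of the 6 arms, and 36869 of the 144499 ranked-list summits (25.5%, interval 25.3 to 25.7) lay in coding sequence, against the 4.98% of the main list. The share was lower again in the lists made from single libraries past their own threshold, with 22 of 2043 peaks (1.08%) for replicate 1 and 44 of 2328 (1.89%) for replicate 2. The authors' conservative pooled list, which is shorter, held 127 of 3172 (4.0%). It overlapped 2849 of the 3417 main-list peaks, so it was not taken as the same peaks under a tighter cut. Intervals cover the sampling of peaks only. Because the files used here hold no read counts, the depth behind each peak is unknown.

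The coding share fell with signal, the authors' own value of peak strength, in units that no source explains. Along the ranked list it went from 22.5% of peaks at a signal up to 10 to 29.3% between 40 and 50. It then went down to 18.1% between 80 and 90 (165 of 912 peaks), 8.98% between 90 and 100 (44 of 490) and 2.32% between 100 and 130 (17 of 734). Above 200 only 4 of 870 ranked peaks (0.460%, interval 0.179 to 1.18) had a coding summit. When the main list was divided by signal into 4 groups of nearly equal size, the coding share was 14.9% in the weakest group and 0.468% in the strongest.

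**Figure D1:**
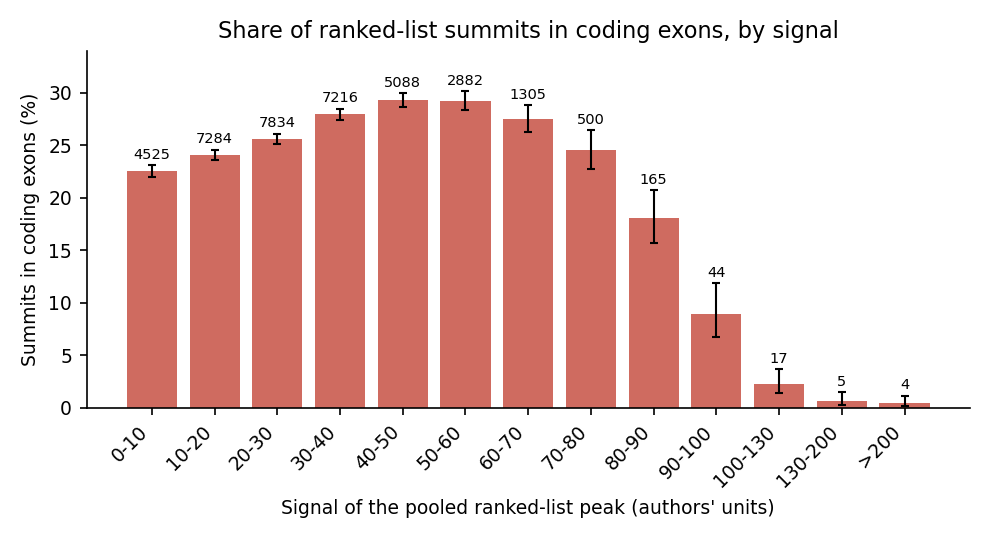
Percentage of pooled ranked-list summits that lie in coding exons (y axis) for peaks grouped by signal (x axis, authors' units), with 95% Wilson intervals as error bars and the number of coding summits above each bar. The share stays between 22.5% and 29.3% up to a signal of 80 and drops to 0.460% above 200.

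Most coding-exon peaks had a signal in a narrow band. Their median was 86.7, with quartiles of 80.3 and 93.1 and a range from 3.19 to 716.4. The other 3247 main-list peaks had a median of 128.8 and quartiles of 95.7 and 206.4. Peaks within 500 bp of a TSS and outside coding sequence had a median of 147.0, intronic peaks 123.1 and intergenic peaks 113.5. A total of 129 coding-exon peaks (75.9%) lay between 70 and 100, where 25.1% of the other peaks lay, and 9 (5.29%) exceeded 130, as 49.4% of the others did. These limits were set after the values were seen. Coding peaks of the ranked list with a signal over 80 had reached the main list in 129 of 235 cases (54.9%), against 2916 of 3559 non-coding peaks (81.9%). Over 100 the numbers were 25 of 26 and 2263 of 2366. The coding peaks over 80 lay mostly near that limit, with 165 between 80 and 90 and 44 between 90 and 100. Of the non-coding peaks over 80, 2366 of 3559 lay over 100. The shares over 80 therefore compare peaks of unlike signal.

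**Figure D2:**
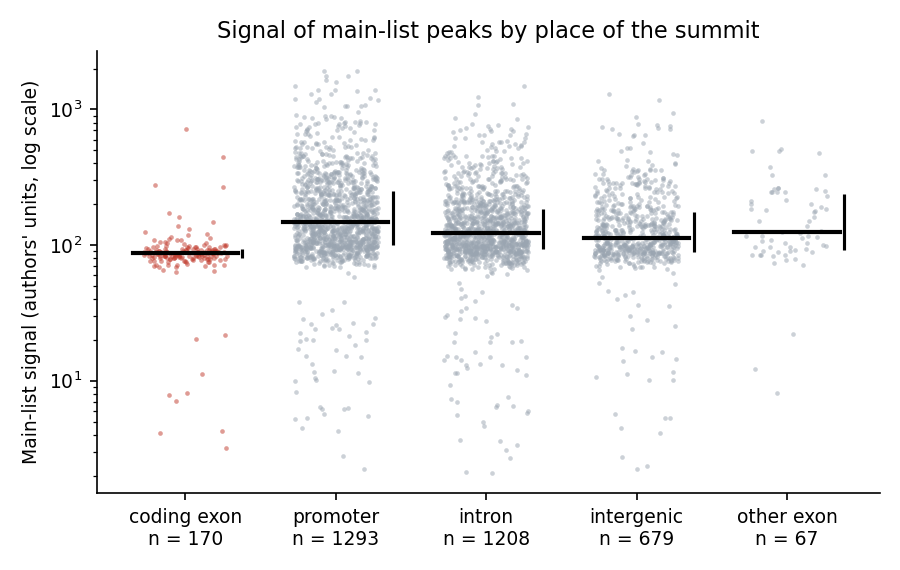
Signal of each main-list peak (y axis, authors' units, log scale) by where its summit lies (x axis, with the number of peaks). Horizontal lines are medians and the vertical line beside each group runs from the lower to the upper quartile; the coding-exon quartiles, 80.3 and 93.1, lie closer together than those of any other group drawn, and 9 coding-exon points fall below 25.

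The 4 strongest coding-exon peaks stood apart from the rest. The strongest, with a signal of 716.4, lay at 2R 20884472 to 20884757 in coding exon 7 of 7 of otp (FBgn0015524), a homeobox gene of neural development. It ranked 76th in the main list, and its summit was 4663 bp from the nearest TSS, that of Cib2. The peak at 2L 11816448 to 11816687, signal 443.9, lay in coding exon 8 of 8 of Pde1c (FBgn0264815), which encodes a cyclic nucleotide phosphodiesterase, and its summit was 20 bp from the exon's edge. The third, at X 16967550 to 16967714 with a signal of 276.6, lay in coding exon 1 of 10 of Ubr1 (FBgn0030809), a ubiquitin ligase that recognises N-terminal degradation signals. The fourth, at 3L 3616474 to 3616615 with a signal of 268.2, lay in coding exon 4 of 4 of CG10357 (FBgn0035453), 7 bp from the exon's edge and 865 bp from an intergenic main-list summit of signal 315.3. These 4 peaks were also the only coding-exon peaks narrower than 360 bp, the width of the other 166 and of 80.3% of the non-coding main-list peaks.

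The next 5 peaks had signals from 132.3 to 173.9. They lay in l(3)mbn (173.9), CG7465 (161.1), klar (149.0), CG44812 (137.7) and side-III (132.3). klar encodes a protein needed for the movement of nuclei and lipid droplets along microtubules, and side-III belongs to the Sidestep family of cell surface proteins of the immunoglobulin class. The peaks ranked 10th to 16th lay in CG6125, which held 2 of them (124.2 and 120.4), vig2 (119.6), CG14591 (115.6), Ptp99A (112.6), Sbat (110.3) and Gbeta5 (109.9). Ptp99A is a receptor protein tyrosine phosphatase of axons, and Gbeta5 is a G protein beta subunit. At the lower end stood second peaks in vig2 (3.19), Ptp99A (4.15) and Afti (4.24).

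Few of these peaks were also in the thresholded lists of the single replicates. An overlap of at least 1 bp with a thresholded peak of both replicates was found for 7 of the 170 (4.12%, interval 2.01 to 8.25), where 46.8% of all main-list peaks had one. A further 9 overlapped a peak of replicate 1 alone and 19 a peak of replicate 2 alone, and 135 (79.4%) overlapped neither, against 23.2% of the other main-list peaks. The conservative list overlapped 85 of them (50%), where it overlapped 83.4% of all main-list peaks. The 7 were those in otp, Pde1c, Ubr1, CG10357, CG7465 and CG44812 and a peak of signal 7.83 in mRpL32, a mitochondrial ribosomal protein gene. The summit in mRpL32 was 200 bp from a promoter summit of signal 126.7. Neither replicate's ranked list had a summit within 100 bp of it. When thresholded summits had to lie within 100 bp of each other, the count over the 170 was 6 (3.53%).

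Signal in each replicate was read from the replicate's own ranked list at the nearest summit within 100 bp. The peak in otp had 326.3 in replicate 1 and 388.3 in replicate 2. That in Pde1c had 178.4 and 273.0, that in Ubr1 105.8 and 161.9, and that in CG10357 108.9 and 160.1. Each of these values lay above 3 in 4 of the coding-exon peaks of the same list. The peak in klar had 43.6 and 115.2 and the peak in side-III 74.9 and 56.7. The scale of the signal is not known to be shared by the replicates' lists, so levels were not compared between them. Over the 154 coding-exon peaks with a summit in both lists the medians were 43.1 in replicate 1 (range 12.6 to 326.3) and 44.6 in replicate 2 (range 2.35 to 388.3). Across these peaks, which share both libraries and were selected on pooled signal, Spearman's rho was -0.24 and Pearson's r of the log2 signals was 0.33. Across 2977 other main-list peaks the values were 0.74 and 0.82.

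**Figure D3:**
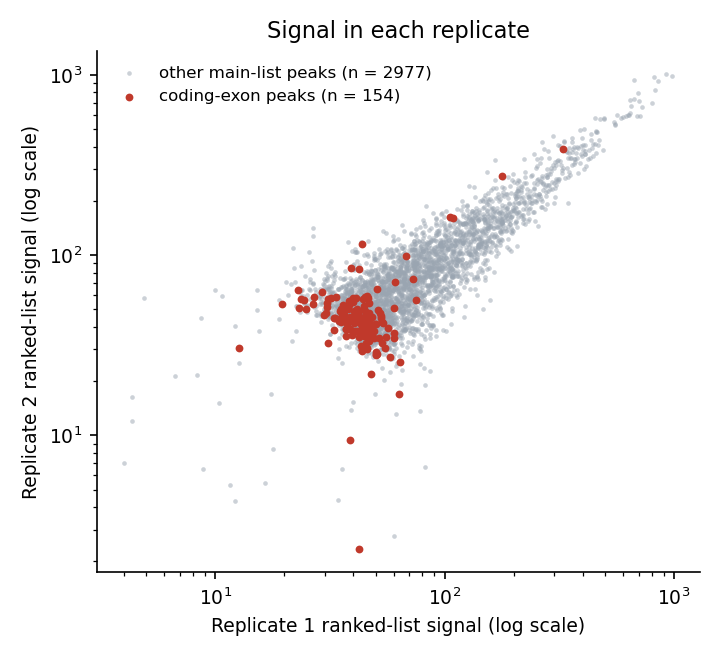
Signal in replicate 1 (x axis) and replicate 2 (y axis) at the ranked-list summit nearest to each main-list summit within 100 bp, both on log scales in the authors' units; each point is a peak. The 154 coding-exon peaks sit mostly around medians of 43.1 and 44.6 at the low corner of the cloud, with otp, Pde1c, Ubr1 and CG10357 further up.

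Coding-exon peaks and other peaks were also set side by side at like signal. Among main-list peaks of signal 80 to 100, 0 of 104 coding-exon peaks (upper limit of the interval 3.56%) and 7 of 653 other peaks (1.07%) overlapped a peak of both replicates. In the same band rho was -0.65 across all but 3 of the 104 coding-exon peaks, which lacked a summit in one list, and -0.61 across 605 others. Choosing peaks within a narrow range of a signal pooled from both replicates can itself pull rho below 0, so these values say little of how the replicates relate. The part of this choice was not tested. The share overlapping neither list was 84.6% against 62.2% in this band, and the part of signal in the replicate counts was not tested.

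The coding-exon summits were rich in G and C, while the other summits of the main list were rich in A and T. The bases within 50 bp of their summits had a median GC content of 58.4% (quartiles 53.5 and 63.4, range 36.6 to 76.2), and the other main-list summits had 34.7% (quartiles 27.7 and 43.6). Promoter, intronic and intergenic summits had medians of 34.7%, 33.7% and 35.6%. The DNA 300 bp to either side was alike, at 44.6% for coding-exon peaks and 44.1% for the others. The summit was richer in GC than its flanks in 156 of 170 coding-exon peaks (91.8%) and in 29.1% of the others. The coding-exon summits, but not their flanks, were chosen to lie in coding sequence. No such value is given here for coding ranked-list peaks outside the main list. Over 50% GC was reached by 86.5% of coding-exon summits and 13.2% of the others, and within the signal band of 80 to 100 by 91.3% and 23.6%.

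**Figure D4:**
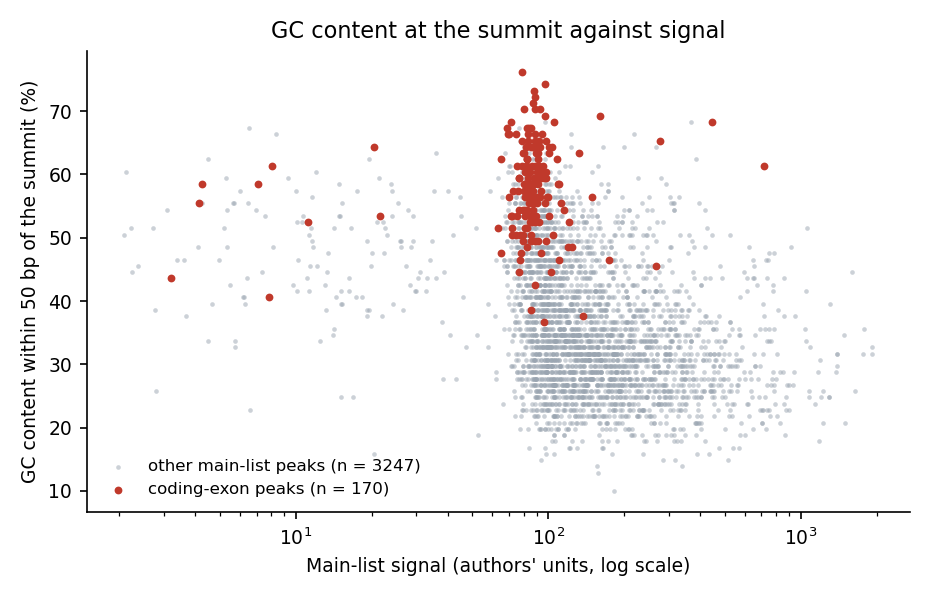
GC content within 50 bp of each main-list summit (y axis, %) against signal (x axis, authors' units, log scale), with coding-exon peaks in red and other peaks in grey. The coding-exon points gather around a median of 58.4% and a signal of 86.7, above the other points, whose median is 34.7%.

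Coding sequence is itself rich in GC, and the values beside it were closer. The whole coding sequences of the host genes had a median of 55.5% GC, and 120 summits (70.6%) lay above their own host, by a median of 2.92 percentage points over all 170. The 36699 coding ranked-list peaks that were not in the main list had a summit median of 55.4%, and the 1879 of them with a signal of 60 or more had 58.4%, as the main-list peaks had. The 2 lowest values among the 9 strongest peaks were 37.6% in CG44812 and 45.5% in CG10357.

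The AT-rich letters that were frequent at the other summits were almost missing here. TATAAA, the TATA box, was in 0 of 170 summit windows, which reach 50 bp to each side (upper limit 2.21%), where 18.1% of all main-list windows held it and 11.2% of the windows at 300 bp to either side of the coding-exon peaks did. TAATTA, the core bound by many homeodomain proteins, was also in 0, where 8.81% of all main-list windows and 5% of the flanks held it. The 8-mer most frequent among the other summits relative to their flanks, ATTTAAAA, was in 0 coding-exon windows and 5.64% of the others. Of the next 4 such 8-mers, ATATTTAA was in 1 window and TATTTTAA, TTAAAAAA and TTTAAAAA in 0. Unlisted coding peaks of signal 60 or more held TATAAA in 1.44%, TAATTA in 0.426% and ATTTAAAA in 0 of 1879 windows. As the 8-mers were chosen at the other summits, their share there describes the choice.

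GC-rich letters were more frequent. CAGCTG, an E-box of the kind bound by basic helix-loop-helix proteins, was in 23 windows (13.5%, interval 9.19 to 19.5), where 4.27% of all main-list windows and 3.53% of the flanks held it. Unlisted coding peaks of signal 60 or more held it in 8.57%. GGNGGCGC was in 8 windows (4.71%, interval 2.40 to 9.01), against 1.52% of all main-list windows, 2.06% of the flanks and 3.14% of the unlisted coding peaks. TGGCGC, picked after the sequences of the strongest peaks were seen, was in 22 (12.9%), against 5.09% of all main-list windows, 5.59% of the flanks and 188 of 1879 unlisted coding peaks. Windows were read on both strands, and a match is a run of letters, not a binding site.

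These GC-rich letters were also counted separately in the strongest coding-exon peaks and in the weaker ones. TGGCGC was in the windows of all 4 strongest, otp, Pde1c, Ubr1 and CG10357, in klar among the next 5, and in 17 of the remaining 161 (10.6%). GGNGGCGC was in Pde1c, Ubr1, CG10357 and klar, and in 4 of the remaining 161 (2.48%), among them the peaks in Rbfox1 and unc-13-4A. The match in Pde1c lies outside the coding bases printed above. Among 1604 other main-list peaks with a signal over 130, TGGCGC was in 4.43% and GGNGGCGC in 1.56%, and of the 90 of those with over 50% GC, 27 held TGGCGC. As TGGCGC was chosen on the first of these peaks, their count describes the choice. The GGNGGCGC matches in Pde1c, CG10357 and klar contain a TGGCGC match, and that in Ubr1 overlaps one. The GGNGGCGC count of the strongest peaks is therefore not separate from that choice.

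Within genes the summits were spread over the whole coding sequence. The median position was 49.0% of the way from start to stop codon, and the 5 equal stretches from start to end held 45, 33, 19, 36 and 37 peaks. The first coding exon held 50 peaks (29.4%, interval 23.1 to 36.7), against 25.8% of the unlisted coding peaks. The last coding exon held 68, among which the 21 in genes with a single coding exon are also counted as first. The exons were shorter than those under the unlisted coding peaks, with a median of 475.5 bp against 750, and the hosts' coding lengths were 1833 and 2160 bp. A total of 137 summits lay 50 bp or more inside their exon, 142 were coding in every coding transcript of the host, and 0 lay in the coding sequence of more than 1 gene.

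The peaks lay near a TSS less often than the other main-list peaks, but more often than the unlisted coding peaks. A total of 43 (25.3%) lay within 500 bp of a TSS. This compares with 1293 of the other 3247 main-list peaks and 16.9% of the unlisted coding peaks. Over 1000 bp away lay 91 coding-exon peaks, and the median distance was 1101 bp. These 2 values are not given here for other peaks. The longest, 33274 bp, belonged to the peak in nolo (signal 98.0). Peaks within 500 bp of a TSS had a median signal of 85.1 (highest 137.7) and those farther away 87.2, and the 7 strongest peaks were all farther than 500 bp from a TSS. The nearest TSS was that of the host gene for 114 of the 170. A main-list promoter peak outside coding sequence was present in 19 of the 157 host genes (12.1%), which held 23 of the coding-exon peaks. This is near the background, since 11.0% of all protein-coding genes had such a peak.

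The 157 host genes were 1.13% of 13945 protein-coding genes. Of 10 lists of genes with a role in the embryo or in chromatin, 3 genes in 2 lists were hosts. Dfd, the Hox gene of the maxillary and mandibular segments, was 1 of 47 anteroposterior patterning genes, with peaks of 88.7 and 20.4. eya, a cofactor of eye and muscle development (89.0), and tin, the homeobox gene of the heart (69.99), were 2 of 34 dorsoventral, mesoderm and heart genes. No host was among 82 cytoplasmic ribosomal protein genes, 24 insulator genes, 29 Polycomb and Trithorax group genes, 38 neural genes, 32 signalling genes, 46 cytoskeleton and adhesion genes, 35 genes of RNA polymerase II and general transcription, or 43 cell cycle genes. The shares of the first 2 lists, 2.13% and 5.88%, rest on these 3 genes, beside the 1.13% of all genes.

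Hosts were picked for groups by role after the host genes were seen, so a group may leave out hosts of the same role. In the first group, 15 hosts encode transcription factors or their cofactors. They held 17 peaks with a median signal of 86.1 and a range from 20.4 to 716.4, and 2 of the 17 overlapped a thresholded peak of at least 1 replicate. All coding-exon peaks together had such an overlap in 35 of 170 cases (20.6%), and 74.0% of all main-list peaks had one. Beside otp, Dfd, eya and tin they include the homeobox genes hth (91.6 and 74.5), Hmx (79.6) and lms (81.6), the forkhead gene fd59A (89.5), the Sox gene Sox21a (94.6), the zinc finger gene rn (93.7), the Runx gene lz (82.5) and fru (78.8), which directs male courtship. GC content at their summits ranged from 76.2% in fru and 72.3% in eya down to 48.5% in Hey, a target gene of Notch signalling.

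A second group, picked in the same way, had 16 hosts that encode ion channels, proteins of transmitter or peptide signalling, and synaptic or neuronal surface proteins. Their 18 peaks had a median of 89.0 and a range from 4.15 to 132.3, and 6 of the 18 overlapped a thresholded peak of at least 1 replicate, beside the 20.6% of all 170. Examples are SLO2, a potassium channel (103.6), TyrR, a tyramine receptor (103.0), Eh, the eclosion hormone (99.1), dpr9, an immunoglobulin superfamily member (97.4), and Rbp, a protein of the presynaptic active zone (91.7). The group picked for RNA-binding and RNA-modifying proteins had 6 hosts with 9 peaks and does not hold every such host. Among them were bru2 (100.3 and 71.7), Rbfox1 (87.7) and Mettl14 (85.3), a subunit of the enzyme that methylates adenosine in mRNA. All 3 groups had medians near that of the 170 peaks, and how many such genes lie among all genes was not counted.

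No gene held more than 2 coding-exon peaks, and 13 held 2. By strongest signal these were led by CG6125 (124.2), vig2 (119.6), Ptp99A (112.6), bru2 (100.3) and hth (91.6). In CG6125 both peaks were of similar strength and 1561 bp from each other, while in vig2 and Ptp99A the second peak was far weaker and 213 and 199 bp away. Such close pairs made up the weak end of the signal range. A total of 10 coding-exon peaks had a stronger main-list summit within 250 bp, at 199 to 213 bp, and 9 of these stronger summits were coding too. They include all 9 peaks with a signal under 25. Without the 10, the remaining 160 peaks had a median of 87.3 and a lowest value of 64.9. Of the other main-list peaks, 4.59% had such a neighbour.

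Each large autosomal arm held more coding-exon peaks than X, in number and as a share of its peaks. X had 8 of its 580 main-list peaks in coding sequence (1.38%, interval 0.701 to 2.70), 2L 31 of 659 (4.70%), 2R 33 of 586 (5.63%), 3L 50 of 793 (6.31%) and 3R 48 of 798 (6.02%), and the 1 peak on chromosome 4 was not coding. In the ranked list the shares lay closer together, with 24.4% of summits coding on X (interval 23.90 to 24.95) and 24.6% to 27.5% on the 4 large autosomal arms. Ranked-list signals were lower on X for coding peaks, with a median of 24.98 beside 29.2 to 29.8 on those arms, and for non-coding peaks, with 23.3 beside 26.9 to 27.8. A single threshold was applied to all arms, and its part in the difference was not tested.

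On X, 2 of the 8 peaks lay on either side of the tagged gene. CG10959 (X 8148783 to 8150686) held none itself. The summit in CG15336 (98.0) was 621 bp and the summit in Gbeta5 (109.9) 627 bp beyond its ends. Within 10 kb of CG10959 the 20 coding ranked-list peaks had a median signal of 41.2, against 24.9 for 6270 others on X. The sources used here do not say how or where the transgene was inserted, and its part in these values was not tested.

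Neighbouring peaks were not more frequent here than elsewhere. Another main-list summit lay within 5 kb of 58 coding-exon peaks (34.1%, interval 27.4 to 41.5) and of 44.9% of the other peaks. The median distance to the next summit was 10680 bp from a coding-exon peak and 6192 bp from the other peaks. Every summit window of the 170 was found once on the arms.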

How the data were processed

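Values are the authors' deposited narrowPeak lists on dm6, which exist as a ranked and an IDR thresholded list per replicate and per pool. A shorter pooled list, named conservative, was also used. No source used here names the aligner or peak caller. The deposited signal, the authors' measure of peak strength, has no stated scale, so levels were compared inside lists only, and the 2 replicates by correlation. The deposited score, a whole number (830 or more in the main list), was read but not compared. Of the pooled ranked lists, 16 columns with values per replicate were left aside, since their replicate is not stated. Of 3434 main-list peaks, 3417 lay on the arms.

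Each summit was placed on the Ensembl annotation of dm6. A member lay in a coding row of a protein-coding gene, without the stop codon. The others were classed as promoter (within 500 bp of a TSS), other exon, intron or intergenic. Sequences came from the RefSeq copy of dm6, as 50 bp on each side of the summit, with flanks centred 300 bp away on both sides. Coordinates are 1-based. The coding-exon peaks, 19 motifs, 10 gene lists and alternatives were chosen with earlier results of these data known, and signal ranges, TGGCGC, the role groups and the 250 bp rule after the values were seen. No test was made, because peaks of 1 group are not replicates; 95% Wilson intervals cover the sampling of peaks only, and depth is unknown. Named genes were CG10959, the hosts of the 15 strongest and 3 weakest peaks, of the 5 strongest over 1000 bp from a TSS, up to 3 hosts per list and up to 5 with 2 peaks; nolo, mRpL32, CG15336, unc-13-4A and the genes given by role were added to the named genes once their values were known. The placing, motif and GC steps were checked on simulated data. Software was matplotlib 3.10.9, pandas 2.3.3, numpy 2.4.6 and scipy 1.17.1 under Python 3.11.15.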

Additional observations from a re-analysis of the deposited data

How the results depend on the processing

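Of 60 values recomputed under an alternative, 33 moved by less than their interval, 25 moved by more and 2 changed sign. No paired analysis was possible because the study has 1 group. The share of summits in coding exons was 4.0% in the conservative list, 0.600% in the strongest 500 peaks (3 peaks), 4.16% for summits coding in every transcript, 4.01% for summits 50 bp or more inside the exon, 6.10% of peaks over 500 bp from a TSS, and 1.08% to 1.89% in the lists of single replicates. The difference of median signals, coding-exon minus other peaks, was -42.0, and became -46.2 in the conservative list, -32.3 over 500 bp from a TSS and -33.2 to -29.1 in single replicates. Among the strongest 500 peaks it reversed to 52.9, with 3 coding-exon peaks. Spearman's rho between replicates reversed from -0.24 to 0.94 when only peaks in both thresholded lists counted, which leaves 6 strong peaks. The share near a TSS was 7.06% within 200 bp and 46.5% within 1000 bp. Another summit lay within 1 kb of 18.2% and within 10 kb of 48.8% of coding-exon peaks, and within 5 kb of 20.5% to 27.3% in single replicates. Peaks in the first coding exon were 19.7% over 500 bp from a TSS. Single replicates gave medians of 55.9% to 58.4% GC and 2.27% to 18.2% of peaks with a promoter peak of the same host. The 3 peaks among the strongest 500 had a median of 65.3% GC, all 3 (100%) overlapped both replicates' lists, and 0 lay within 500 bp of a TSS, within 5 kb of another summit or in a gene with a promoter peak. Leaving out the 10 peaks beside a stronger summit, chosen after seeing the data, was run for the coding share, the overlap with both lists, the signal difference and GC content, and moved none of these 4 by more than its interval. Without counts or an analysed control, the limit that depth sets is unknown.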
